A study of Mus musculus with 12 samples.

Results

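The genes described here are 33 that make sterols and fatty acids, found by symbol among the 25208 genes of a table of read counts. They are 17 genes of the sterol branch, 12 of the fatty acid branch and 4 regulators that serve both. RNA was sequenced from mpkCCDc11 cells, an immortalised line from the cortical collecting duct of the mouse kidney. All cells received siRNA at 50 nM, either a control siRNA (labelled WT) or one against Ctnnb1, the gene of beta-catenin (labelled Ctnnb1 Knockdown). The knockdown is thus partial and transient and was studied in 1 line. All were grown on permeable supports for 4 days and kept without serum or hormones for 24 h before 24 h of vehicle or of 1 nM dDAVP, an agonist of the vasopressin V2 receptor. The 4 groups were control siRNA with vehicle, control siRNA with dDAVP, Ctnnb1 siRNA with vehicle and Ctnnb1 siRNA with dDAVP, each with 3 libraries, and the 12 libraries held 32997720 to 48935473 counted reads. The labels do not say whether the 3 libraries of a group came from separate cultures, so the p-values speak for the scatter of these libraries alone, and part of it may be technical.

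Cells build cholesterol from acetyl-CoA through mevalonate, isoprenoids, squalene and lanosterol, and they build fatty acids from the same acetyl-CoA through malonyl-CoA, followed by elongation and desaturation. The enzymes of both pathways are controlled together by the SREBP transcription factors. When membrane sterol is low, SCAP carries SREBP out of the endoplasmic reticulum for cleavage, and INSIG proteins hold the complex back when sterol is high. SREBP-2, from Srebf2, acts mainly on sterol genes and SREBP-1, from Srebf1, mainly on fatty acid genes, usually beside the factors NF-Y and Sp1. In the collecting duct these lipids form the apical and basolateral membranes through which vasopressin-regulated water channels are moved.

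The letters that these genes carry just before their start sites are shown for 3 members, and no difference between the branches was tested. RefSeq windows on GRCm38.p6 were matched for 27 of the 33 members, and the 250 bases before each start were searched on both strands. Fdps, Fdft1, Sqle, Scd1, Scd2 and Fads1 were not matched. CCAAT, the NF-Y box, was present in 13 of 14 sterol members with a window, 3 of 4 regulators and 5 of 9 fatty acid members. GGGCGG, the Sp1 box, was present in 13 of 14, 4 of 4 and 5 of 9. Of all 32851 windows of this length, 33.8% held CCAAT and 32.7% held GGGCGG, counted per window whereas a member counts if any of its windows matched. Hmgcs1, which encodes the enzyme that makes HMG-CoA for sterol synthesis, was the 1 member with TCACNCCAC, a core of the sterol regulatory element, 137 bases before its start (1.05% of all windows). Insig1, the sterol-regulated brake on SREBP, held 3 Sp1 boxes, 1 NF-Y box and 1 CACGTG E-box, which 6 of 27 members and 6.02% of windows held. Elovl6, which elongates palmitate to stearate, held no copy of any of the 6 motifs. The remaining motifs, the cyclic AMP response element TGACGTCA (1.55% of windows) and the TCF/LEF site ATCAAAG (3.21%), were in no member window. Fads2, the delta-6 desaturase, held 1 Sp1 box and no other motif, and the box lies in an exon that GENCODE gives the gene upstream of its RefSeq start. Capitals below mark every motif found on either strand, no motif overlapped a different one, and bases that GENCODE places in an exon of the same gene, upstream of its RefSeq start, are left off, 49 for Insig1 and 31 for Elovl6.
Hmgcs1, chr13:119690101-119690350, plus strand: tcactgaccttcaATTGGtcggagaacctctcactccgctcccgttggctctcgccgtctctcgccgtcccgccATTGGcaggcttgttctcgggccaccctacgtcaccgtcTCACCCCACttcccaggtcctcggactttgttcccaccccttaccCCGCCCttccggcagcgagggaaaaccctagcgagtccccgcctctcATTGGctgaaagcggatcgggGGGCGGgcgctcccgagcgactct
Insig1, chr5:28071162-28071362, plus strand: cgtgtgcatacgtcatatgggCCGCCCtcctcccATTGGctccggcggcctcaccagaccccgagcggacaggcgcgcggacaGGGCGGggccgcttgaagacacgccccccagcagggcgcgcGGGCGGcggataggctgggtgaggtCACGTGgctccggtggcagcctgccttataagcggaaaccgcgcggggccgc
Elovl6, chr3:129532136-129532354, plus strand: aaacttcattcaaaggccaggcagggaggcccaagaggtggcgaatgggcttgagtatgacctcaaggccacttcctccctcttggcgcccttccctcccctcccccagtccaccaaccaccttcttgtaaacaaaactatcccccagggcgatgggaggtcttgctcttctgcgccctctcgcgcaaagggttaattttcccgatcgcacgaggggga
In the Hmgcs1 stretch 2 NF-Y boxes lie upstream of the sterol element, and 2 Sp1 boxes and 1 NF-Y box lie between it and the start, while the Elovl6 stretch is in lower case throughout. Of the Elovl6 stretch 98 bases lie in an exon that GENCODE gives the minus-strand gene Gm35986. A match is a description of the letters and not of a bound site.

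All 33 members passed the filter on low counts, and the fewest reads for a member in any library were 242 reads. The siRNA lowered its target from a mean of 757 CPM (SD 11.5; counts-per-million values scaled by TMM) to 316 CPM (SD 14.9) with vehicle and from 791 CPM (SD 18.2) to 334 CPM (SD 8.08) with dDAVP (n = 3 each). Aqp2, the water channel that marks a dDAVP response, had 2 reads in the 3 control-siRNA vehicle libraries together and 770 reads with dDAVP, and 8 and 513 reads with Ctnnb1 siRNA. Of 12 principal cell markers, 9 reached 1 CPM in some library, while Aqp4, Scnn1b and Elf5 did not. Markers of thick limb, endothelium and adipocytes summed to at most 0.451 CPM in any library, and those of fibroblasts and leukocytes to at most 2.77 and 4.99 CPM. Of 6 proximal tubule markers 1 was clearly present, Lrp2, at 70.7 to 95.8 CPM. Libraries stood apart within both dDAVP groups. In dDAVP replicate 3 of Ctnnb1 siRNA and replicate 1 of control siRNA mitochondrial ribosomal RNA took 1.52% and 1.27% of reads, against 0.464% to 1.07% in the other 10 libraries.

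In cells with control siRNA and vehicle the members spanned a wide range of levels. The levels here are TPM, transcripts-per-million values, which take transcript length into account and can be compared between genes. Scd2, a stearoyl-CoA desaturase, was the highest at 526 TPM (SD 48.5, n = 3), and Fdps, which makes farnesyl diphosphate, followed at 425 TPM (SD 14.7). Fads2 (211 TPM), Msmo1, the sterol C4-methyl oxidase (199 TPM), Hmgcs1 (186 TPM) and Acly, which supplies cytosolic acetyl-CoA from citrate (171 TPM), came next. The lowest were Dhcr7, the last enzyme of cholesterol synthesis by one of its routes (11.3 TPM), Hsd17b7, a sterol 3-keto reductase (10.9 TPM), and Acss2, which makes acetyl-CoA from acetate (5.45 TPM, SD 0.475). The median of all tested genes was 15.5 TPM, and 15 of 17 sterol members, 11 of 12 fatty acid members and 4 of 4 regulators lay above it. Summed levels were 1595 TPM for the sterol branch and 1369 TPM for the fatty acid branch.

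Neighbours in this order were often not separated by their spread: the ranges of 16 of 32 neighbouring pairs overlapped. Scd2, Fdps and Fads2 did not overlap one another. The long run from Sqle to Fdft1 through Srebf1, Cyp51, Insig1, Fasn and Pmvk overlapped at each step. Scd2 stood at 25.5 times Scd1 in TPM (SD 0.688, n = 3). Reads of these related genes, and of Acat2 with its close copy, could have been split between copies by the counting, so their separate levels are uncertain. Among the regulators Srebf1 had 96.4 TPM (SD 4.56), Insig1 92.4 TPM (SD 3.76), Srebf2 57.4 TPM (SD 3.95) and Scap 25.9 TPM (SD 1.45).

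**Figure D1:**
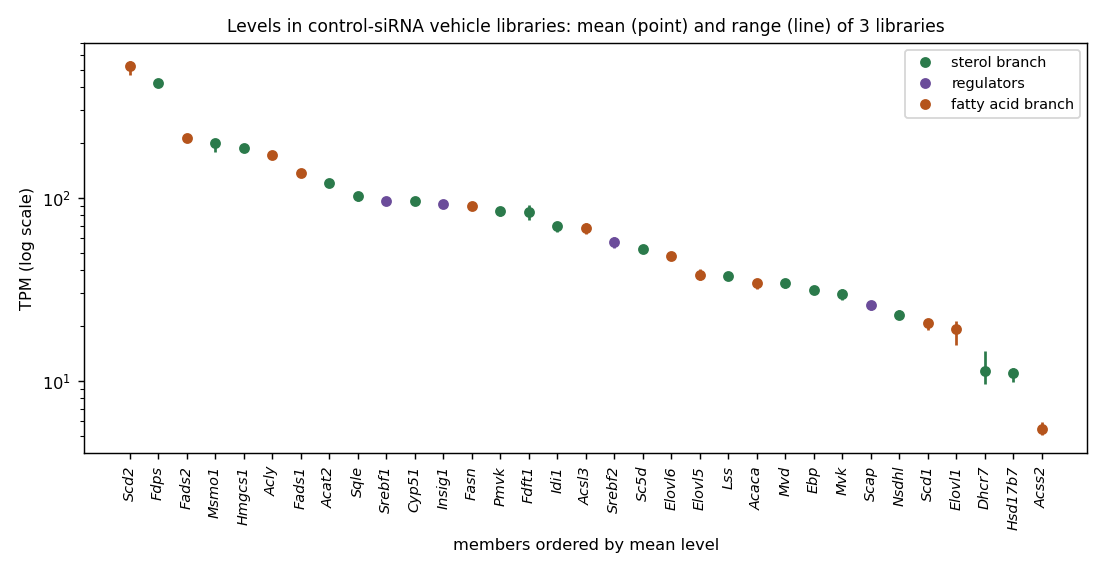
Levels of the 33 members in control-siRNA vehicle cells in TPM on a log axis, as the mean (point) and range (line) of 3 libraries, coloured by branch. Scd2 at 526 TPM and Fdps at 425 TPM lead the order, members of both branches are mixed along it, and Acss2 is lowest at 5.45 TPM.

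The first comparison was dDAVP against vehicle in control-siRNA cells, which asks what V2 receptor stimulation does to these genes when beta-catenin is not lowered. Of the 33 members 2 rose and 0 fell (edgeR quasi-likelihood test, Benjamini-Hochberg adjusted p under 0.05 over all genes tested), beside 2.83% of the 16508 genes tested, 1.91% higher and 0.915% lower. Both were in the fatty acid branch, where 2 of 12 rose, and 0 of 17 sterol members and 0 of 4 regulators changed. The median log2 fold change was 0.03 over the fatty acid branch, -0.01 over the sterol branch and -0.004 over all genes tested. The groups of 3 libraries did not overlap for 4 members that were higher and 4 that were lower, beside 10.2% and 12% of all genes tested. By DESeq2 4 members were called, beside 5.15% of genes, and by limma on log2 of TPM plus 1 1 was, beside 2.43%.

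Elovl6 (gene ID 170439, GRCm38 chromosome 3, 129532386 to 129638495) showed the largest response of any member. It had 144, 136 and 135 CPM in the vehicle libraries and 182, 173 and 190 CPM in the dDAVP libraries of control siRNA. Every dDAVP library lay above every vehicle library. The rise was 1.31-fold (log2 0.39, SE 0.050, 95% interval 0.29 to 0.50, adjusted p = 0.000268 by edgeR). It was called in 19 of 19 alternative analyses, among them all 12 that left out a library. Here and below, a left-out library from outside the 2 compared groups acts only through the filter, scaling and spread that all groups share. One more of the 19 left out both dDAVP libraries with low sterol levels, a choice made after seeing the data (log2 0.39, adjusted p = 0.000176 by edgeR). The TPM ratio of Elovl6 to Fasn, the multienzyme synthase whose palmitate it elongates, was 0.551, 0.530 and 0.520 with vehicle and 0.652, 0.718 and 0.686 with dDAVP. With Ctnnb1 siRNA this ratio overlapped, at 0.526, 0.608 and 0.631 with vehicle and 0.622, 0.680 and 0.730 with dDAVP. The exons of Elovl6 share 34 bases, 0.53% of their length, with the antisense gene Gm35986. Whether counting used the strand is not given in the sources used here.

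Fads2 (gene ID 56473, chromosome 19, 10062765 to 10101503), the delta-6 desaturase that starts the synthesis of long polyunsaturated fatty acids, had 303, 306 and 287 CPM with vehicle and 346, 362 and 339 CPM with dDAVP. The groups did not overlap. The rise was 1.17-fold (log2 0.23, SE 0.049, adjusted p = 0.0199 by edgeR). Leaving out any 1 of 5 libraries ended this call: vehicle replicates 1, 2 and 3 of control siRNA gave adjusted p = 0.0518, 0.0504 and 0.119, and dDAVP replicates 1 and 2 gave 0.0624 and 0.0593. It was also lost on log2 of TPM plus 1 (limma, adjusted p = 0.107), and the log2 fold change stayed between 0.17 and 0.25 over the 19 alternatives.

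Fads1 (gene ID 76267, chromosome 19, 10182877 to 10196874), the delta-5 desaturase that follows Fads2 in the same route, had 234, 231 and 227 CPM with vehicle and 264, 245 and 258 CPM with dDAVP. The groups did not overlap, and the difference did not pass the test (log2 0.15, SE 0.051, adjusted p = 0.170 by edgeR; DESeq2 0.0469). The remaining 9 fatty acid members were not called. In 2 of them, Acly and Acss2, every dDAVP library lay below every vehicle library. Acly had 363 to 374 CPM with vehicle and 327 to 360 CPM with dDAVP. Acss2 had 7.22 to 7.96 CPM and 6.57 to 7.18 CPM. Fasn had 435, 430 and 435 CPM with vehicle and 466, 403 and 464 CPM with dDAVP, and these groups overlapped. The desaturase Scd1 had 46.7, 50.3 and 48.1 CPM with vehicle and 52.1, 47.5 and 57.6 CPM with dDAVP, again overlapping. Scd2 had 1304, 1455 and 1416 CPM with vehicle and 1316, 1339 and 1407 CPM with dDAVP, with a log2 fold change of -0.04 (SE 0.051). Over the whole branch the 95% intervals lay between a 1.25-fold lower and a 1.41-fold higher level with dDAVP.

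Sterol members differed little between these groups. The 2 of 17 (11.8%) with an unadjusted p under 0.05, beside 14.6% of all genes tested, pointed in opposite directions. Sqle, squalene epoxidase and a rate-limiting step of the pathway, had 134, 141 and 132 CPM with vehicle and 120, 122 and 122 CPM with dDAVP. Every dDAVP value was below every vehicle value (log2 -0.17, SE 0.048), with an adjusted p of 0.0861 by edgeR, 0.0179 by DESeq2 and 0.0378 by edgeR without dDAVP replicate 3 of Ctnnb1 siRNA. Without that library edgeR called 843 genes in all, against 467 with all 12 libraries. Hsd17b7 was 23.8 CPM (SD 1.13) with vehicle and 28.2 CPM (SD 0.966) with dDAVP (n = 3 each; log2 0.24, SE 0.078, adjusted p = 0.126 by edgeR). Hmgcs1 had 322, 312 and 313 CPM with vehicle and 285, 323 and 304 CPM with dDAVP, and the groups overlapped. The 95% intervals of all 17 sterol members lay between 1.31-fold lower and 1.33-fold higher with dDAVP.

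The 4 regulators were not called either, and none had an unadjusted p under 0.05. Insig1, a direct SREBP target often used as a readout of SREBP activity, had 119, 121 and 117 CPM with vehicle and 109, 123 and 115 CPM with dDAVP. Srebf1 had 200, 208 and 200 CPM with vehicle and 208, 204 and 204 CPM with dDAVP. Srebf2 had 139, 151 and 137 CPM with vehicle and 173, 135 and 156 CPM with dDAVP. In each of these genes the groups overlapped. Their intervals, with that of Scap, lay between 1.14-fold lower and 1.26-fold higher.

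**Figure D2:**
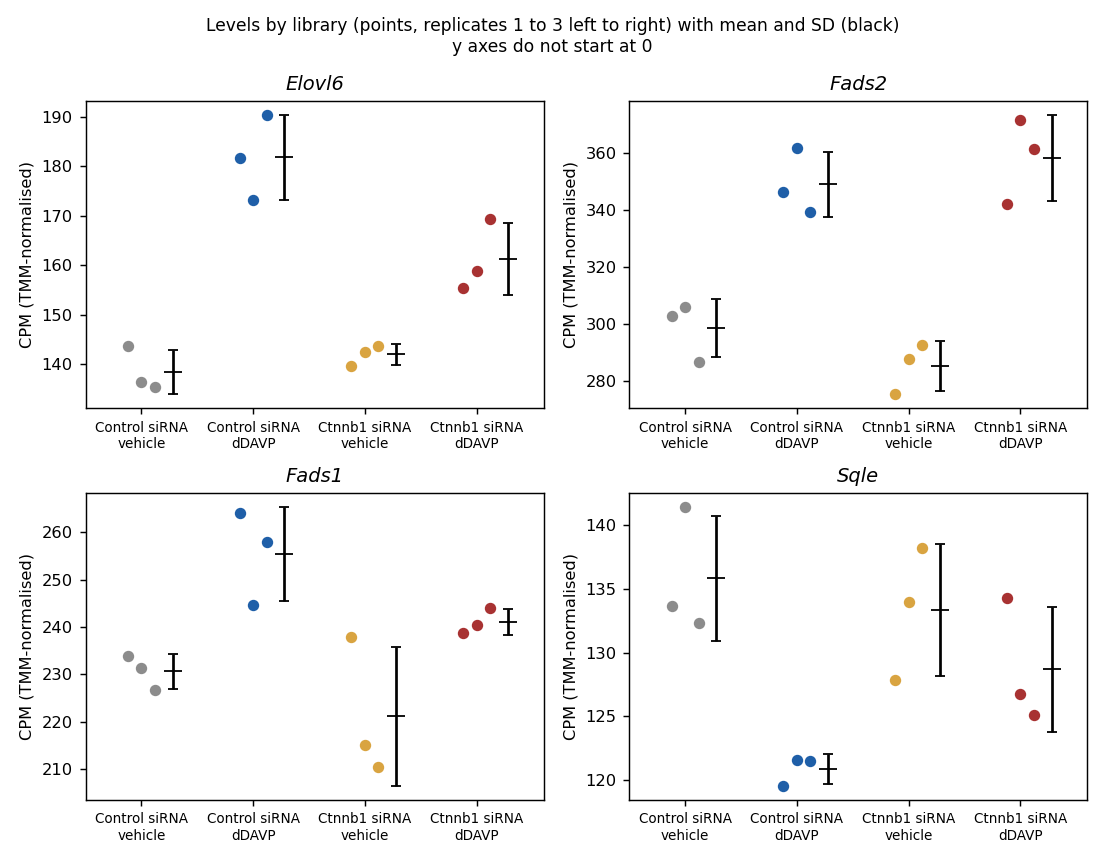
CPM by library in the 4 groups for Elovl6, Fads2, Fads1 and Sqle, with points for replicates 1 to 3 and black bars for the mean and SD; the axes do not start at 0. For Elovl6, Fads2 and Fads1 each dDAVP library lies above the vehicle libraries of the same siRNA, while for Sqle the dDAVP libraries lie below the vehicle ones with control siRNA and overlap them with Ctnnb1 siRNA.

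The second comparison was dDAVP against vehicle after Ctnnb1 siRNA. Of the 33 members 1 rose and 0 fell, beside 2.78% of genes tested, 2.08% higher and 0.697% lower. The member was Fads2, and 1 of 12 fatty acid members, 0 of 17 sterol members and 0 of 4 regulators were called. The groups did not overlap for 3 members that were higher, all of the fatty acid branch, and 1 that was lower, beside 9.54% and 8.3% of genes tested. By DESeq2 2 members were called, beside 4.78% of genes, and by limma on log2 TPM plus 1 2 were, beside 1.27%. Fads2 had 275, 288 and 293 CPM with vehicle and 342, 372 and 361 CPM with dDAVP, with no overlap. The rise was 1.26-fold (log2 0.33, SE 0.049, adjusted p = 0.00111 by edgeR) and was called in 19 of 19 alternatives.

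Elovl6 had 140, 143 and 144 CPM with vehicle and 155, 159 and 169 CPM with dDAVP after Ctnnb1 siRNA. The groups did not overlap, and the difference missed the threshold (log2 0.18, SE 0.050, adjusted p = 0.0698 by edgeR; DESeq2 0.00880; limma on log2 TPM plus 1 0.551). Fads1 had 238, 215 and 210 CPM with vehicle and 239, 240 and 244 CPM with dDAVP (log2 0.12, SE 0.051, adjusted p = 0.279 by edgeR). In Fads1 the highest vehicle library was just below the lowest dDAVP library. Fasn had 443, 392 and 380 CPM with vehicle and 417, 390 and 387 CPM with dDAVP, and the groups overlapped. Scd1 (52.8, 52.0 and 53.3 CPM against 50.4, 49.9 and 56.5 CPM) overlapped likewise. Scd2 (1272, 1306 and 1244 CPM against 1287, 1254 and 1310 CPM) did so too.

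In the sterol branch Hmgcs1 had 318, 327 and 322 CPM with vehicle and 304, 307 and 268 CPM with dDAVP after Ctnnb1 siRNA. Its dDAVP libraries were all below its vehicle libraries (log2 -0.14, SE 0.058, adjusted p = 0.299 by edgeR; limma on log2 TPM plus 1 0.0339), and the lowest was replicate 3. Idi1, isopentenyl diphosphate isomerase, was the other sterol member with an unadjusted p under 0.05, as 13.7% of all genes tested had (log2 -0.14, SE 0.064, adjusted p = 0.327 by edgeR), with 105 CPM (SD 5.24) and 94.7 CPM (SD 5.97; n = 3 each). Sqle had 128, 134 and 138 CPM with vehicle and 134, 127 and 125 CPM with dDAVP, which overlapped. The median over the sterol branch was -0.03, and the 95% intervals reached from 1.47-fold lower to 1.18-fold higher. Of the regulators Insig1 had 125, 126 and 126 CPM against 125, 128 and 102 CPM. Srebf1 had 194, 190 and 190 CPM against 211, 206 and 176 CPM. Srebf2 had 163, 151 and 132 CPM against 148, 122 and 130 CPM. In Insig1 and Srebf1 the lowest of these values was again dDAVP replicate 3.

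**Figure D3:**
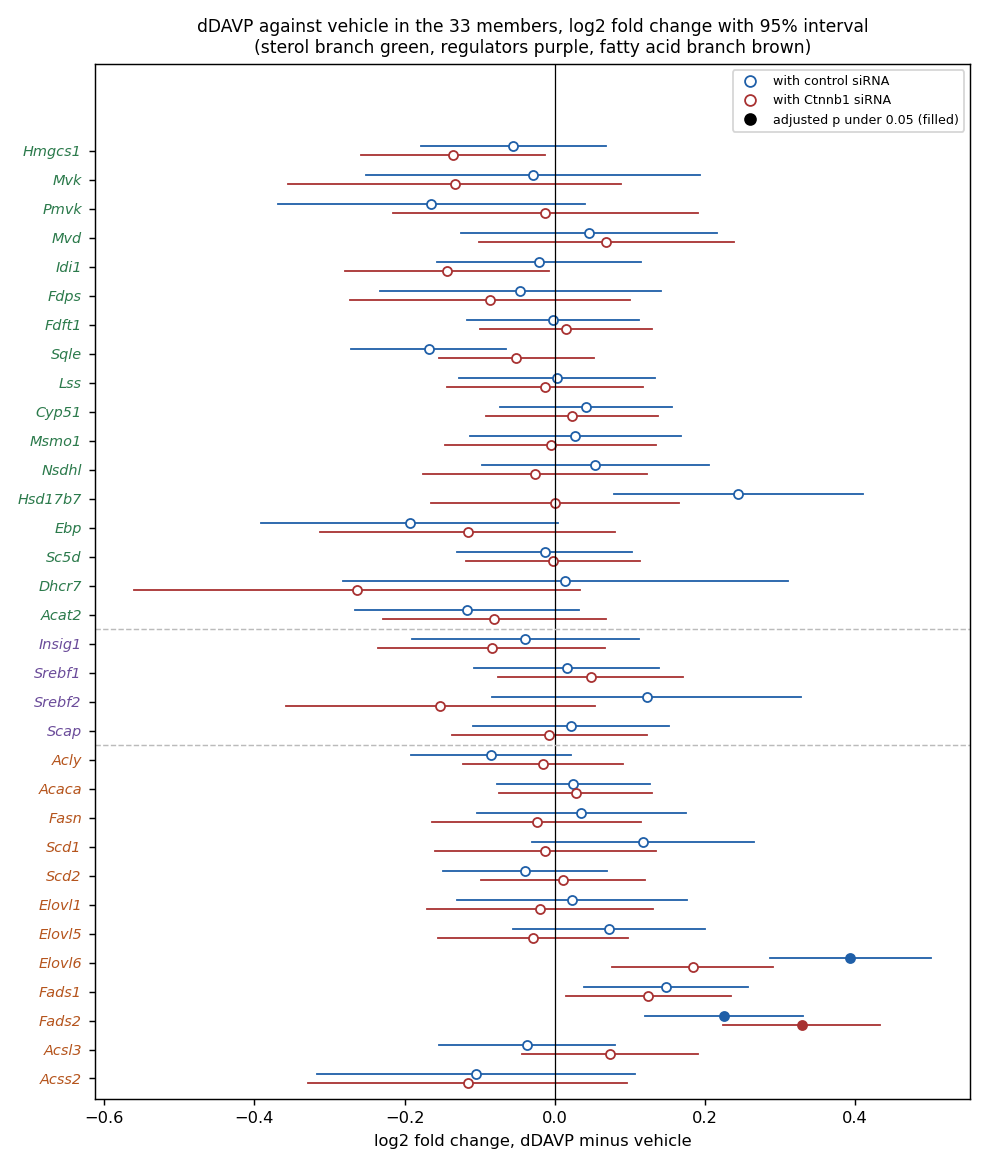
Log2 fold change of dDAVP against vehicle for each of the 33 members with 95% intervals, with control siRNA (blue) and with Ctnnb1 siRNA (red); filled points passed an adjusted p of 0.05 and dashed lines part the sterol branch, the regulators and the fatty acid branch. The filled points are Elovl6 and Fads2 with control siRNA and Fads2 with Ctnnb1 siRNA, and the intervals of most sterol members cover 0.

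The average of both dDAVP effects uses all 12 libraries. Of the 33 members 3 rose and 0 fell, beside 6.86% of genes tested, 4.33% higher and 2.54% lower. They were Elovl6 (log2 0.29, SE 0.036, adjusted p = 7.88e-05), Fads2 (log2 0.28, SE 0.035, adjusted p = 9.72e-05) and Fads1 (log2 0.14, SE 0.036, adjusted p = 0.0330, all by edgeR). Folds were 1.22, 1.21 and 1.10 in that order, and for Elovl6 and Fads2 the call held in 19 of 19 alternatives. Scd1, Scd2, Elovl1 and Elovl5, which also desaturate or elongate fatty acids, were not called. Leaving out 1 library ended the Fads1 call in 8 of 12 cases. For control siRNA these were vehicle replicates 1, 2 and 3 (adjusted p = 0.0551, 0.0703 and 0.0931) and dDAVP replicates 1 and 3 (0.0828 and 0.0740). For Ctnnb1 siRNA they were vehicle replicates 2 and 3 (0.104 and 0.0847) and dDAVP replicate 1 (0.0513). Log2 TPM plus 1 (0.407) and leaving out both dDAVP libraries with low sterol levels (0.0631) ended it as well.

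On this average 0 of 17 sterol members passed the test by edgeR, with 4 (23.5%) at an unadjusted p under 0.05, near the 19.1% of all genes tested. These were Sqle (log2 -0.11, SE 0.034, adjusted p = 0.0719), Hmgcs1 (log2 -0.10, adjusted p = 0.209), Ebp, the sterol delta8-delta7 isomerase (log2 -0.15, adjusted p = 0.202), and Hsd17b7 (log2 0.12, adjusted p = 0.237). Other tools placed some of them past the threshold. DESeq2 called 4 members, beside 9.33% of genes, adding Sqle as lower (adjusted p = 0.0228), and so did edgeR without dDAVP replicate 1 of Ctnnb1 siRNA (0.0496). Limma on log2 TPM plus 1 called 6 members, beside 6.39% of genes, of which 4 were sterol members that were lower: Hmgcs1 (log2 -0.15, adjusted p = 0.00760), Sqle (-0.16, 0.0420), Ebp (-0.20, 0.0333) and Acat2, a cytosolic acetyl-CoA thiolase (-0.16, 0.0319). On that scale the median of all genes was -0.05 and 352 genes were called higher and 703 lower, against 714 and 419 by edgeR. The sterol median was -0.07 by edgeR and -0.13 on the TPM scale. For the fatty acid branch it was 0.02 by edgeR and turned to -0.02 on the TPM scale.

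Sterol members were low together in 1 library of each dDAVP group. Their mean log2 deviation, taken over the 17 members from their own 12-library means, was -0.125 in control-siRNA dDAVP replicate 1 and -0.104 in Ctnnb1-siRNA dDAVP replicate 3. The other 10 libraries lay between -0.038 and 0.057. Of the 17 sterol members 14 and 13 had the lowest value of their group in those 2 libraries, where 37.0% and 39.0% of all genes tested did. They are the same 2 libraries with the highest share of mitochondrial ribosomal RNA, and the part of that share in the sterol values was not tested. In the fatty acid branch 6 and 3 of 12 members were lowest there, with mean deviations of 0.021 and 0.022. These libraries were picked after their sterol values were seen and both had dDAVP, so leaving them out raises the sterol dDAVP values by the choice alone. Without both libraries the sterol median of the average dDAVP effect was 0.008 instead of -0.07, and 2 members were called, Elovl6 and Fads2, beside 7.72% of genes tested. With both left out the sterol branch had 0 calls by edgeR, as it did with all 12 libraries.

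**Figure D4:**
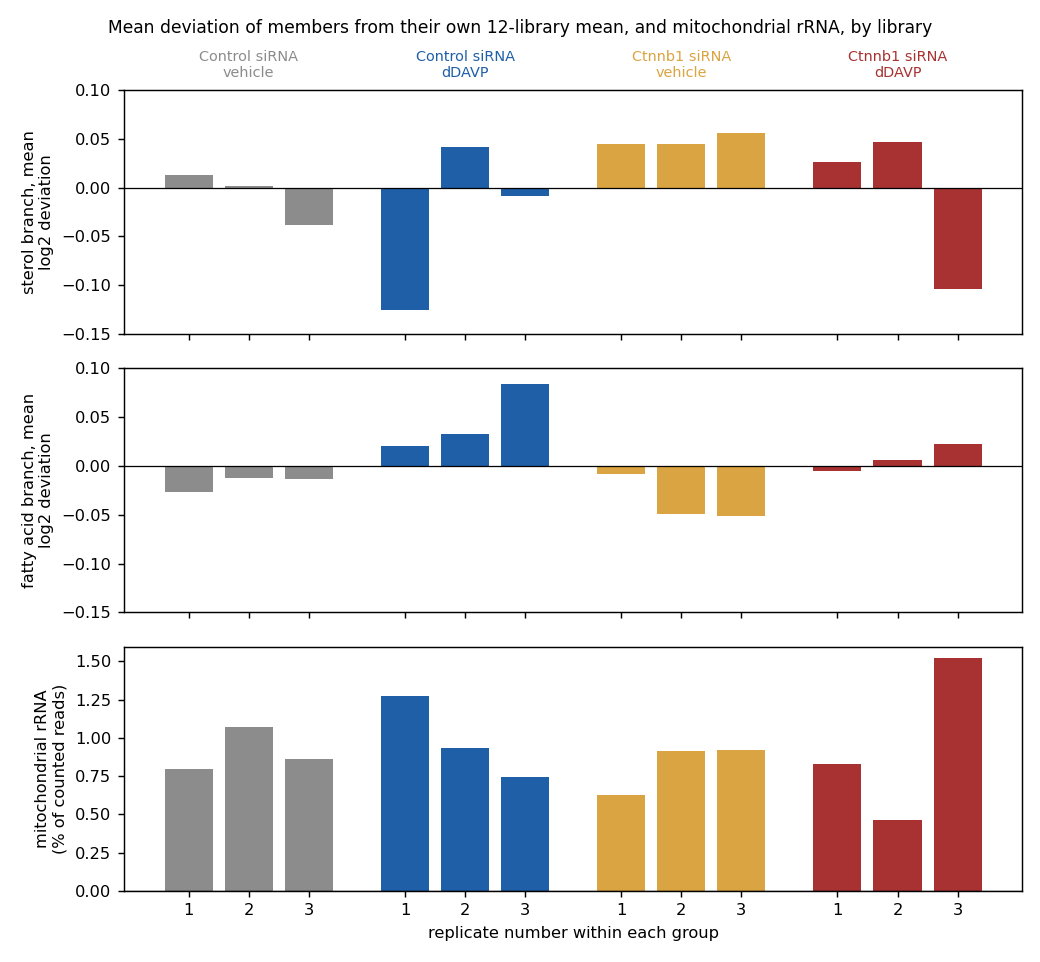
Mean log2 deviation of the 17 sterol and the 12 fatty acid members from their own 12-library means (upper and middle bars) and mitochondrial ribosomal RNA in percent of counted reads (lower bars) in each library, coloured by group. Control-siRNA dDAVP replicate 1 and Ctnnb1-siRNA dDAVP replicate 3 have the lowest sterol bars, -0.125 and -0.104, and the highest ribosomal bars, 1.27% and 1.52%.

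The interaction asks whether Ctnnb1 siRNA changed the response to dDAVP. It was called for 0 of 33 members by edgeR, beside 0% of all genes tested, with 2 members and 829 genes at an unadjusted p under 0.05; DESeq2 called 0 members and 1 gene in all, 0.00397% of genes, and limma on log2 TPM plus 1 called 0 of either. The 2 members were Elovl6 (log2 -0.21, SE 0.071, unadjusted p = 0.00993, adjusted p = 0.918 by edgeR) and Hsd17b7 (log2 -0.24, SE 0.110, adjusted p = 0.918). The Elovl6 difference was negative in 19 of 19 alternatives, from -0.25 to -0.18, and called in 0. For Fads2 the interaction was 0.10 (SE 0.070). That Elovl6 was called with control siRNA and not with Ctnnb1 siRNA is thus no called difference between them.

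The siRNA comparisons ask what lower beta-catenin does to these genes. With vehicle 0 of 33 members were called by edgeR, beside 0.43% of genes tested (0.206% higher and 0.224% lower). With dDAVP 0 of 33 were called, beside 0.267% (0.121% higher and 0.145% lower). The counts at an unadjusted p under 0.05 were 4 and 3 members (12.1% and 9.09%), near the 8.09% and 11.7% of all genes tested. DESeq2 called 0 and 1 members, beside 1.17% and 1.92% of genes, and limma on log2 TPM plus 1 called 0 and 0, beside 0.357% and 0.127%. With vehicle the groups did not overlap for 8 members that were higher with Ctnnb1 siRNA and 2 that were lower, beside 8.95% and 9.26% of genes tested. The 8 were 4 sterol members, Fdps, Lss, Msmo1 and Nsdhl, the fatty acid members Scd1, Elovl1 and Elovl5, and Insig1, with log2 fold changes from 0.08 to 0.19. With dDAVP they did not overlap for 1 higher member, Sqle, and 3 lower ones, Scd2, Elovl6 and Fads1, beside 7.26% and 6.02%. With vehicle the 4 were all in the fatty acid branch: Elovl1, which makes very long chains (log2 0.19, SE 0.071), and Elovl5, which elongates polyunsaturated chains (0.13, SE 0.060), were higher, and Acsl3, an acyl-CoA synthetase of lipid droplets (-0.17, SE 0.055), and Scd2 (-0.13, SE 0.051) were lower. Their adjusted p-values by edgeR ran from 0.322 to 0.607. With dDAVP the 3 were Elovl6 (-0.17, SE 0.050, adjusted p = 0.179), Fasn (-0.16, SE 0.065, adjusted p = 0.364) and Srebf2 (-0.21, SE 0.096, adjusted p = 0.417). For Elovl6 the 155, 159 and 169 CPM of Ctnnb1 siRNA lay below the 182, 173 and 190 CPM of control siRNA. DESeq2 called it lower (adjusted p = 0.0345), and edgeR did so without dDAVP replicate 3 of Ctnnb1 siRNA (log2 -0.21, adjusted p = 0.0498). Without that library edgeR called 216 genes in all with dDAVP, against 44 with all 12 libraries. With vehicle it then called 181 genes, against 71, and 0 members.

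Averaged over treatments 0 of 33 members were called by edgeR for the siRNA, beside 1.85% of genes tested (0.939% higher and 0.909% lower), with 6 (18.2%) at an unadjusted p under 0.05, where 13.2% of all genes tested were. DESeq2 called 2, beside 4.35% of genes, and limma on log2 TPM plus 1 called 1, beside 1.63%. Without Ctnnb1-siRNA dDAVP replicate 3 edgeR called 606 genes in all, against 305 with all 12 libraries, and 0 members. Elovl1 was higher by 0.17 on the log2 scale (adjusted p = 0.111; DESeq2 0.0449), with 20.9 and 21.3 CPM in the control-siRNA groups and 24.0 and 23.6 CPM in the Ctnnb1-siRNA groups. Scd2 was lower (log2 -0.10, adjusted p = 0.209; DESeq2 0.0473), Fasn was lower (-0.13, adjusted p = 0.222), and Acsl3 was lower (-0.11, adjusted p = 0.183; limma on log2 TPM plus 1 0.0356). Msmo1 (0.12, adjusted p = 0.251) and Fdft1, squalene synthase (0.09, adjusted p = 0.324), were the sterol members among the 6. Reads of Fdft1 may mix with those of the antisense gene Ctsb, which covers 18.3% of its exon bases. Of the sterol members 13 of 17 had a positive estimate and of the fatty acid members 9 of 12 a negative one. The medians were 0.05 and -0.06 by edgeR, and the sterol median turned to -0.03 on log2 TPM plus 1, where the fatty acid median was -0.12 and that of all genes -0.07.

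**Figure D5:**
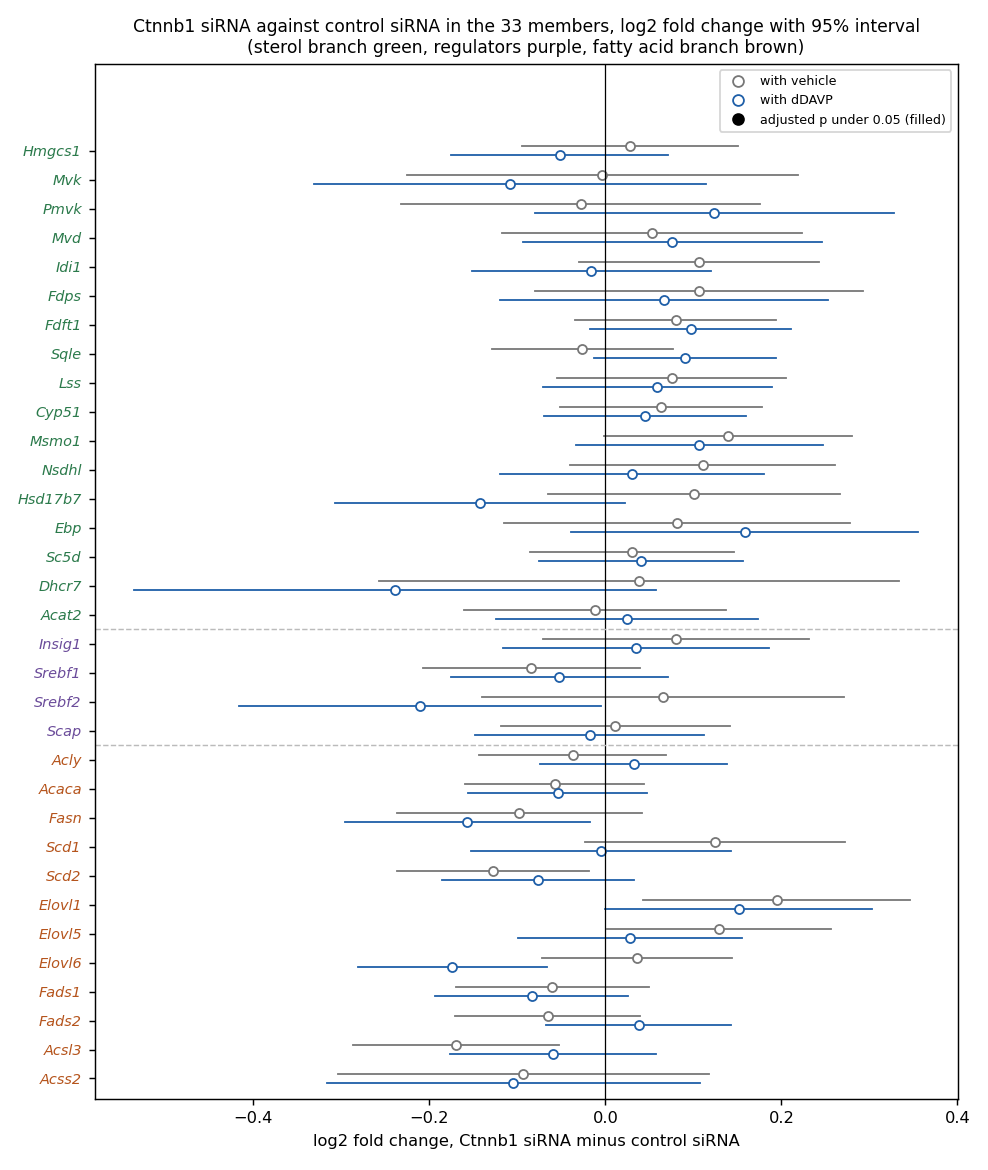
Log2 fold change of Ctnnb1 siRNA against control siRNA for each of the 33 members with 95% intervals, with vehicle (grey) and with dDAVP (blue); a filled point would mark an adjusted p under 0.05. No point is filled, and the largest distances from 0 among the fatty acid members are those of Elovl1 (0.19) and Acsl3 (-0.17) with vehicle and Elovl6 (-0.17) with dDAVP.

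Other genes of lipid handling were read from lists beside the members, chosen with earlier results of these data known. Among 11 further genes of sterol synthesis and SREBP processing, such as Insig2 and Mbtps1, 0 were called for dDAVP with either siRNA or on average, with 0, 0 and 1 at an unadjusted p under 0.05. Among 6 tested genes of sterol efflux, esterification and LXR targets 1 rose with dDAVP in each siRNA. Of all genes tested 1.91% rose with control siRNA and 2.08% with Ctnnb1 siRNA. The listed gene was Soat1, which esterifies cholesterol for storage. It had 74.2 CPM (SD 1.42) and 119 CPM (SD 5.06) with control siRNA. With Ctnnb1 siRNA it had 67.9 CPM (SD 2.96) and 108 CPM (SD 23.9; n = 3 each). The rises were 1.60-fold (log2 0.68, SE 0.109, adjusted p = 0.00335) and 1.59-fold (log2 0.67, SE 0.110, adjusted p = 0.00365, both by edgeR). On average Mylip, a ubiquitin ligase for the LDL receptor, rose too (log2 0.22, adjusted p = 0.0135 by edgeR). That made 2 of 6, beside 4.33% of all genes tested. DESeq2 gave Mylip 0.00136 and limma on log2 TPM plus 1 gave 0.106. For Soat1 with Ctnnb1 siRNA limma on log2 TPM plus 1 gave 0.0719. Its Ctnnb1-siRNA dDAVP libraries spanned 94.2 to 136 CPM. Without replicate 3 of that group edgeR called Soat1 lower with Ctnnb1 than with control siRNA under dDAVP (log2 -0.34, adjusted p = 0.00728). The average siRNA effect was then called by edgeR too (log2 -0.23, adjusted p = 0.00147). In these 2 comparisons edgeR then called 216 and 606 genes in all, against 44 and 305 with all 12 libraries. Without both dDAVP libraries with low sterol levels the Soat1 rise with Ctnnb1 siRNA was 0.47 on the log2 scale.

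Among 19 tested genes of further fatty acid and glycerolipid synthesis 2 rose with dDAVP in each siRNA, beside 1.91% and 2.08% of all genes tested. Acacb, the acetyl-CoA carboxylase of the mitochondrial surface, whose malonyl-CoA inhibits fatty acid uptake into mitochondria, had 5.71 CPM (SD 0.355) and 9.37 CPM (SD 1.70) with control siRNA (n = 3 each; log2 0.72, SE 0.131, adjusted p = 0.00569 by edgeR). With Ctnnb1 siRNA its log2 rise was 0.62 (SE 0.130, adjusted p = 0.0164 by edgeR), a call lost without Ctnnb1-siRNA vehicle replicate 1 (0.0589), 2 (0.104) or 3 (0.0507) or dDAVP replicate 2 (0.0561). Limma on log2 TPM plus 1 called it with neither siRNA (adjusted p = 0.104 and 0.222). Its cytosolic counterpart Acaca, a member, had log2 fold changes of 0.02 and 0.03. Dgat2, which makes triglyceride, had 9.79 CPM (SD 0.350) and 14.6 CPM (SD 0.827), a 1.49-fold rise (adjusted p = 0.000883), and rose 1.48-fold with Ctnnb1 siRNA (adjusted p = 0.00102, both by edgeR; called in 19 of 19 alternatives each).

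On average 5 of these 19 rose, beside 4.33% of all genes tested. The first added was Acsl4, an acyl-CoA synthetase that favours arachidonate (log2 0.36, adjusted p = 0.00669 by edgeR). Also added were Me1, malic enzyme, a source of NADPH (0.24, adjusted p = 0.0346), and Acsl1, another acyl-CoA synthetase (0.22, adjusted p = 0.0478, both by edgeR). Single libraries decided the last 2. For Me1 the call ended without replicate 1 (adjusted p = 0.0924) or 2 (0.0717) of control-siRNA vehicle, control-siRNA dDAVP replicate 1 (0.0880) or 3 (0.0940), Ctnnb1-siRNA vehicle replicate 2 (0.0859) or 3 (0.0888) or Ctnnb1-siRNA dDAVP replicate 3 (0.0565). For Acsl1 it ended without any 1 of the libraries except Ctnnb1-siRNA dDAVP replicates 1 and 2, with adjusted p-values from 0.0533 to 0.121. Limma on log2 TPM plus 1 called none of the 3 (adjusted p = 0.109, 0.298 and 0.310 in the order named). Among 14 genes of fatty acid oxidation 1 rose in each siRNA, beside 1.91% and 2.08% of all genes tested. This was Cpt1a, the entry step that malonyl-CoA inhibits. It had 178 CPM (SD 5.16) and 225 CPM (SD 11.5) with control siRNA (n = 3 each; log2 0.34, SE 0.050, adjusted p = 0.000984) and rose by 0.31 on the log2 scale with Ctnnb1 siRNA (SE 0.050, adjusted p = 0.00216, both by edgeR). Limma on log2 TPM plus 1 gave it 0.0651 and 0.151. These lists had 0 genes lower with dDAVP in any of these comparisons.

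Some cell type markers moved with dDAVP as well. Of 10 tested principal cell markers 3 rose with control siRNA, 2 with Ctnnb1 siRNA and 3 on average, and 0 fell. The shares of all genes tested that rose were 1.91%, 2.08% and 4.33%. Of 7 intercalated cell markers 4 are in the table and 3 were tested. Atp6v0a4, a subunit of the proton pump, rose with control and Ctnnb1 siRNA (log2 1.01 and 0.85), and Aqp6, an intracellular water channel, rose with control siRNA (1.56, adjusted p = 0.00240 by edgeR; limma on log2 TPM plus 1 0.0520). With Ctnnb1 siRNA the Aqp6 value was 1.08 (adjusted p = 0.0355 by edgeR), and this call ended without any 1 of 5 libraries (0.0560 to 0.191). The most abundant gene of the list, Atp6v1b1, was not called, and Slc4a1 stayed under 1 CPM in all libraries. Atp6v1g3, Slc26a4 and Foxi1 were not found by symbol among the genes of the table. The summed level of the list was 61.9 to 73.2 CPM against 76.3 to 88.3 CPM with control siRNA and 72.9 to 78.3 CPM against 78.0 to 92.8 CPM with Ctnnb1 siRNA. The proximal list summed to 82.4 to 96.4 CPM with vehicle and 71.0 to 82.2 CPM with dDAVP in control-siRNA cells, and to 85.8 to 88.0 CPM and 71.6 to 75.7 CPM after Ctnnb1 siRNA. Its 1 abundant gene, Lrp2, fell on average (log2 -0.23, adjusted p = 0.00446 by edgeR), and Cubn, Slc5a2 and Aqp1 stayed under 1 CPM. Their part in the values of the members was not tested. In bulk RNA a change in the cells present and a change per cell cannot be told apart.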

How the data were processed

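Counts and TPM of 12 libraries (4 groups of 3) came from 1 deposited table, of which every per-sample column was used. Per the labels' protocols, stranded libraries were prepared after ribosomal depletion. According to the submitters' processing notes, the tools were FastQC, Trimmomatic, HISAT2, StringTie and DESeq2, without versions, and the build was GRCm38 (mm10). The read counts were deposited by the authors without normalization, per the file headers, and sum to 32997720 to 48935473 per library. The TPM values were deposited by the authors per length and library total. Whether counting used the strand is not given in the sources used here. By the GENCODE annotation, 9 of 33 members share exon bases with another gene of the table, at most 18.3% of their length.

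Counts were fitted in R 4.3.3 with edgeR 4.0.16: filterByExpr (minimum count 10) kept 16508 of 25208 genes with 99.97% of reads, TMM scaled the libraries, and 1 robust quasi-likelihood model with a coefficient per group gave 7 contrasts. The common biological coefficient of variation was 8.26%. P-values were adjusted by Benjamini-Hochberg over all genes tested, and a gene was called under 0.05. Intervals are Wald intervals at 95%. The median coefficient of variation within groups was 5.60% over sterol members, 3.87% over fatty acid members and 5.46% over tested genes of like level. The scripts were tested on simulated data. The members and lists were chosen with earlier results of these data known. All 33 members may be named, with values by library for each called member and for Hmgcs1, Sqle, Insig1, Srebf1, Srebf2, Fasn, Scd1 and Scd2; of other lists only called genes and examples of the list are named. Other settings tried were DESeq2 1.42.0, edgeR scaled by upper quartiles or by the size factors of DESeq2, keeping low-count genes, a replicate block, limma 3.58.1 on log2 of TPM plus 1 (fold changes on that scale understate low genes), and each library left out. Leaving out 2 dDAVP libraries together was added after seeing the data. Promoter windows, gene IDs and coordinates are from RefSeq, GRCm38.p6.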

Additional observations from a re-analysis of the deposited data

How the results depend on the processing

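The counts of called members by edgeR were 2 for dDAVP with control siRNA, 1 with Ctnnb1 siRNA, 3 for the average dDAVP effect and 0 in the other comparisons. Of all genes tested 2.83%, 2.78% and 6.86% were called in the first 3, and 0% to 1.85% in the others. With DESeq2 the member counts were 4 for dDAVP with control siRNA (adding Fads1 and, lower, Sqle), 4 for the average dDAVP effect (adding Sqle, lower), 2 for dDAVP with Ctnnb1 siRNA (adding Elovl6), 1 for Ctnnb1 siRNA with dDAVP (Elovl6, lower) and 2 for the average siRNA effect (Scd2 lower, Elovl1 higher). In that order DESeq2 called 5.15%, 9.33%, 4.78%, 1.92% and 4.35% of genes. With limma on log2 TPM plus 1 the member counts were 1 for dDAVP with control siRNA, 2 with Ctnnb1 siRNA, 6 for the average dDAVP effect (4 lower) and 1 for the average siRNA effect. In that order limma called 2.43%, 1.27%, 6.39% and 1.63% of genes. Leaving out 1 library gave 1 to 3 for dDAVP with control siRNA, 1 to 1 with Ctnnb1 siRNA, 0 to 1 for Ctnnb1 siRNA with dDAVP and 2 to 3 for the average dDAVP effect. In that order the genes called in all ran from 240 to 843, 212 to 492, 5 to 216 and 807 to 1279. The 3 members, with 843 genes, and the 1 member, with 216, both came without Ctnnb1-siRNA dDAVP replicate 3. Leaving out both dDAVP libraries with low sterol levels gave 2 for the average dDAVP effect, beside 7.72% of genes. No member fold change that passed a test changed sign in any alternative. The cause of these differences was not tested. On log2 TPM plus 1 the share of calls that were higher was 42.4% against 67.7% by edgeR for dDAVP with control siRNA and 63.3% against 74.9% with Ctnnb1 siRNA, and 25.4% against 47.9% for the siRNA with vehicle, 19.0% against 45.5% with dDAVP and 16.7% against 50.8% on average. With the replicate block Elovl6 had a log2 fold change of 0.39 (adjusted p = 0.000733) and Fads2 0.22 (0.0234) for dDAVP with control siRNA, and no member call changed. Acsl1, which is no member, lost its average call there (0.0686). Libraries of the same number shared little deviation: over 12 pairs the correlation of deviations ran from -0.0864 to 0.0719. In 4 of the 12 pairs a library correlated best with its own number, among them replicates 1, 2 and 3 for dDAVP with Ctnnb1 siRNA. Groups of 3 are too small to settle whether the numbers pair the libraries. The fewest reads for a member in a library were 242, and how much of the spread between libraries is counting error was not tested.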

Other observations

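Ratios within a library do not depend on how libraries are scaled. The TPM ratio of Acaca to Acacb was 26.0, 24.5 and 25.1 in control-siRNA vehicle libraries and 13.7, 20.4 and 15.3 with dDAVP. With Ctnnb1 siRNA it was 23.7, 26.8 and 24.0 with vehicle and 19.8, 15.5 and 16.3 with dDAVP. Neither pair of groups overlapped.

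The ratio of Elovl6 to Elovl5 was 1.33, 1.29 and 1.19 with control siRNA and vehicle and 1.70, 1.44 and 1.62 with dDAVP. With Ctnnb1 siRNA it was 1.14, 1.20 and 1.24 with vehicle and 1.38, 1.38 and 1.38 with dDAVP, again with no overlap. Fads2 and Fads1 lie in the same stretch of chromosome 19, and the ratio of the first to the second was 1.38, 1.60 and 1.66 with Ctnnb1 siRNA and vehicle and 1.71, 1.84 and 1.77 with dDAVP. With control siRNA that ratio overlapped between vehicle (1.54, 1.58 and 1.51) and dDAVP (1.56, 1.76 and 1.57). The ratio of Scd2 to Scd1 was 24.8 to 26.1 in control-siRNA vehicle libraries and 20.7 to 22.3 in Ctnnb1-siRNA vehicle libraries, with no overlap, while with dDAVP the groups overlapped. No test was run on these ratios.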
